A study of Mus musculus with 8 samples.

Results

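The mitotic cycling progenitors of the hippocampus were 107 of 8087 cell barcodes with at least 200 genes, 58 of 3049 in the Control library and 49 of 5038 in the TBI library. The members were chosen by measured values, under 3 conditions on a barcode's unique molecular identifiers (UMIs, tags that mark each captured RNA molecule), counted without those of the nuclear RNA Malat1. The cycle genes Mki67, Top2a and Cdk1 together made up at least 0.1% of the UMIs. The endothelial genes Flt1 and Cldn5, the oligodendrocyte precursor gene Pdgfra and the microglia gene Cx3cr1 together made up less than 0.05%. The 7 mitosis genes Cenpa, Cdc20, Ccnb1, Ccnb2, Cenpe, Hmmr and Aspm held more UMIs than the 8 S-phase genes Hist1h1a, Hist1h1b, Hist1h2ab, Esco2, Tk1, Rrm2, Tyms and Cdca5. All these genes are measurements of the same cells, so their levels describe the choice of the cells and are not findings about them.

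The study asked how traumatic brain injury (TBI) changes the neural stem cells of the adult dentate gyrus and their progeny, by single-cell RNA sequencing of cells sorted for GFP. Control mice received a sham craniotomy and TBI mice a unilateral controlled cortical impact, and the dentate gyrus was taken on day 15 after surgery from Nestin-GFP mice that were 8 weeks old and, by the study's methods, male. Mice of both groups carried GFP under control elements of the nestin gene, a filament protein of stem cells in the brain. The gate on GFP therefore limits the cells measured, and GFP that outlasts nestin keeps daughter cells in the gate. The labels list 4 Control and 4 TBI animals, the study's methods state other numbers, and the animals of a condition were pooled, which leaves 1 library per condition and no test between conditions. The Control library held 24723113 UMIs in 3086 barcodes and the TBI library 31543330 UMIs in 5081 barcodes. Of the barcodes, 3 occurred in both libraries, and 0 of these were members.

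In the adult dentate gyrus, radial glia-like stem cells divide rarely, and most divisions are those of intermediate progenitors that express Eomes and Neurog2. Before mitosis, in G2, a cell builds up the cyclins, kinases, kinetochore proteins and motors with which it condenses, aligns and separates its chromosomes, and the anaphase-promoting complex then destroys many of these proteins in order. The RNAs of these genes are high in both G2 and mitosis, so the 2 phases cannot be told apart by them, and "mitotic" stands here for a cell with more mitosis than S-phase RNA. The members were set beside 138 other cycling cells, which passed the same conditions on cycle genes and other cell types but had at least as many S-phase as mitosis UMIs, and beside 889 cells outside the cycle with 0 UMIs of Mki67, Top2a and Cdk1 and with Eomes and Neurog2 at 0.03% of UMIs or more.

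The label was borne out by the genes of the rule, as it had to be. Levels below are in CPM, the UMIs of a gene in all cells of a class and library per 1000000 UMIs without Malat1. Cenpa, the histone H3 variant of centromeres, stood at 1107 CPM in Control and 1196 CPM in TBI members, and at 187 and 181 CPM in the other cycling cells. Cdc20, the activator of the anaphase-promoting complex, stood at 773 and 801 CPM, against 76.6 and 81.8 CPM. Ccnb1, the cyclin that drives entry into mitosis, stood at 656 and 649 CPM, against 128 and 118 CPM. The motor Cenpe, the spindle proteins Hmmr and Aspm and the cyclin Ccnb2 had between 300.3 and 1053 CPM in members of either library and at most 184 CPM in the other cycling cells. Each of the 7 genes had a UMI in at least 44 of the 49 TBI members and in at least 55 of the 58 Control members.

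The members were not a tight class on these measures. A Control member held a median of 79.5 mitosis UMIs, from 7 to 183, and a TBI member a median of 59, from 3 to 173. The S-phase genes had a median of 13 UMIs in Control and 5 in TBI members. In 18 Control and 7 TBI members the mitosis UMIs were under 2 times the S-phase UMIs, and in 30 and 34 they were at least 5 times as many. The members nearest to the limit had 65 mitosis against 64 S-phase UMIs in Control and 3 against 2 in TBI, and the nearest cells outside had 27 against 27 and 50 against 51. On the cycle genes the members nearest to the limit had 0.106% and 0.111% of UMIs, the nearest cells outside 0.0997% and 0.0981%, and 14 Control and 13 TBI members lay below 0.15%. In members the excluded genes reached at most 0.00752% of UMIs in Control and 0 in TBI.

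**Figure D1:**
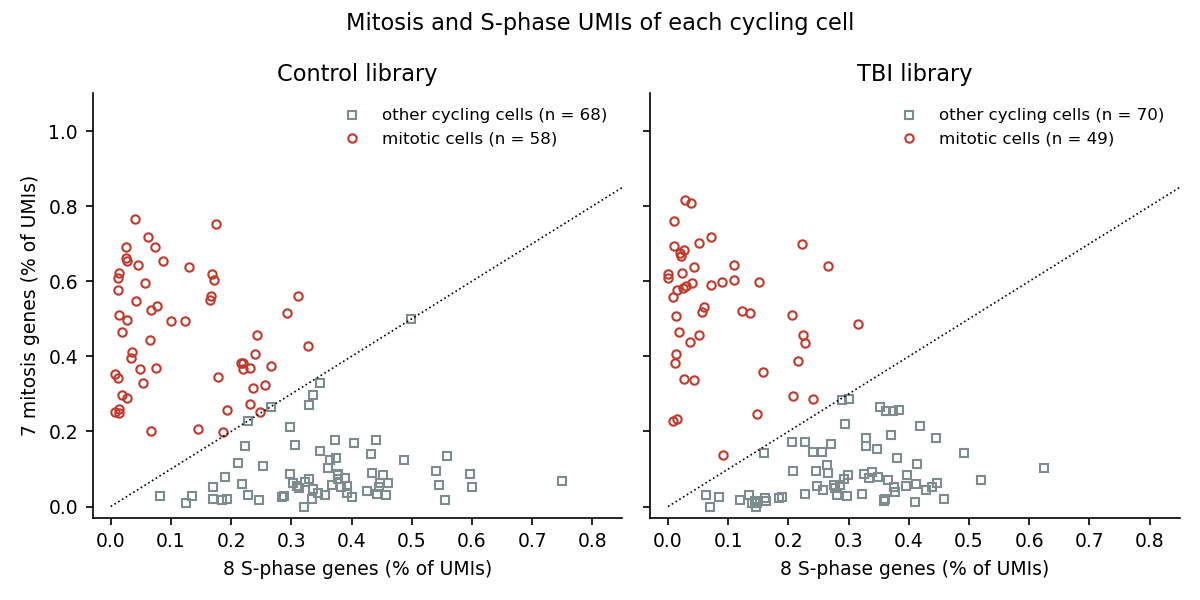
Share of UMIs of the 7 mitosis genes (vertical axis, %) against that of the 8 S-phase genes (horizontal axis, %) in each cycling cell of the Control and TBI libraries; circles are the 58 and 49 mitotic cells, squares the 68 and 70 other cycling cells, and the dotted line marks equal shares. Mitotic cells lie above the line by choice, and 18 Control but 7 TBI mitotic cells have less than 2 times as many mitosis as S-phase UMIs.

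The members made up a smaller share of the TBI than of the Control library, a direction that turned when barcodes with more than 4500 genes were left out. They were 1.90% of Control cells (exact 95% Clopper-Pearson interval 1.45 to 2.45%) and 0.973% of TBI cells (0.720 to 1.28%). These and all other intervals cover counting error only, and not the spread between animals, which the pooling hides. The other cycling cells were 2.23% and 1.39% of the libraries, while the Eomes or Neurog2 cells outside the cycle were 10.3% and 11.4%. Of the members 45.8% came from the TBI library (36.1 to 55.7%), against 50.7% of the other cycling cells (42.1 to 59.3%), 64.7% of the Eomes or Neurog2 cells outside the cycle (61.4 to 67.8%) and 62.3% of all cells. Among the cycling cells, the members were 46.0% in Control (37.1 to 55.1%) and 41.2% in TBI (32.2 to 50.6%), so these intervals overlap. With all barcodes the share was lower in TBI in both kinds of cycling cell.

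The direction of these shares differed between the ways in which the depth of the cells was handled. Where barcodes with more than 4500 genes were left out, the members were 0.578% of Control cells (16 of 2769, 0.331 to 0.937%) and 0.734% of TBI cells (36 of 4906, 0.514 to 1.01%), intervals that overlap, and the other cycling cells 0.578% and 0.876%. Of the members 69.2% then came from TBI, because 42 of 58 Control members (72.4%) but 13 of 49 TBI members (26.5%) had more than 4500 genes. With each cell thinned to 5000 UMIs before the members were chosen, and shallower cells left out, the members were 3.43% of Control and 2.35% of TBI cells, the direction found with all barcodes. The members of the Control library were among its deepest cells. The median member had 19996 UMIs and 4901 genes in Control (1162 to 37126 UMIs) and 11266 UMIs and 3860 genes in TBI (2173 to 21405 UMIs). The ratio of the TBI to the Control median was 0.563 in members, 0.685 in the other cycling cells, 0.766 in the Eomes or Neurog2 cells outside the cycle, 0.812 in oligodendrocytes and 0.834 in all cells. In Control the median member had 1.05 times the UMIs of the median other cycling cell, and in TBI 0.863 times. A difference in sequencing depth between the libraries moves all classes, and its part in the members' ratio was not tested. Scrublet called 38 Control and 110 TBI barcodes doublets (1.25% and 2.18%), of which 0 were members, and they were left in. The mitochondrial share of UMIs had a median of 6.16% in Control and 5.65% in TBI members, with 1 TBI member at 49.1%.

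**Figure D2:**
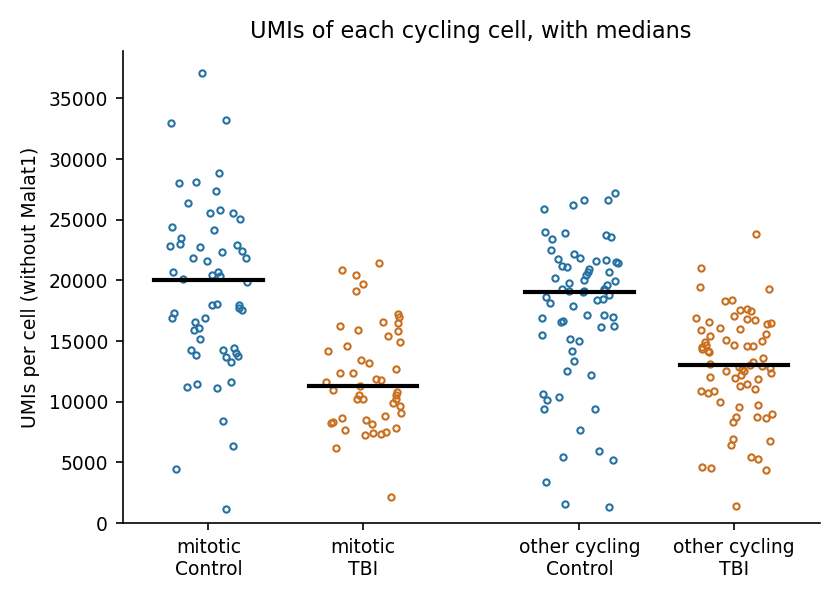
UMIs per cell without Malat1 (vertical axis) for the mitotic and the other cycling cells of each library (horizontal axis); each circle is a cell and each bar a median. Control mitotic cells have the highest median, 19996 UMIs, and TBI mitotic cells the lowest, 11266 UMIs.

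Against the other cycling cells, the machinery of mitosis was higher in the members and the machinery of replication lower, in both libraries. Ratios are given as log2 values of CPM in members over CPM in the compared cells, within a library, first Control and then TBI, with no test, since each library is 1 sample. With at least 100 UMIs in the cells compared, 5861 genes were considered, of which 2.13% were at least 2-fold higher in the members of both libraries and 2.88% at least 2-fold lower, with medians of -0.03 and -0.06 over all of them. By any amount, 32% were higher and 39.8% lower in both libraries. Of 70 genes for kinases and cyclins, anaphase, kinetochore and spindle, 25 were at least 2-fold higher in both libraries, 0 were 2-fold lower, and 61 were higher in both. Because the cells were split by genes of the same programs, the counts describe the split and nothing is read from them.

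Among mitotic kinases, their partners and cyclins, 9 of 16 genes were at least 2-fold higher in both libraries, with a list median of 1.14 and 1.61. Plk1, the kinase that drives centrosome maturation and entry into mitosis, stood at 270.2 CPM in Control and 234 CPM in TBI members, against 65.6 and 77.4 CPM in the other cycling cells (log2 ratios 2.04 and 1.60). Cdc25c, the phosphatase that activates CDK1, stood at 102 and 115 CPM, against 22.7 and 15.5 CPM (2.16 and 2.89). The CDK subunit Cks2 stood at 1265 and 1341 CPM, against 336 and 376 CPM (1.91 and 1.84), and Tpx2, the spindle protein that activates Aurora A, at 814 and 1174 CPM, against 353 and 384 CPM (1.21 and 1.61). Not every kinase followed. Aurkb, the kinase of the chromosomal passenger complex, had ratios of -0.17 and 0.30, the checkpoint kinase Bub1 -0.11 and 0.45, and the cyclin Ccna2, which acts from S phase on, 0.82 and 0.96.

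Of 11 genes of anaphase, 2 were at least 2-fold higher in both libraries, Ube2c and Sgo2a, with a list median of 0.68 and 0.71. Ube2c, the ubiquitin-conjugating enzyme of the anaphase-promoting complex, stood at 1400 CPM in Control and 1405 CPM in TBI members and at 325 and 339 CPM in the other cycling cells (log2 ratios 2.11 and 2.05). Sgo2a, which protects centromeric cohesion, had ratios of 1.13 and 1.36. Fbxo5, the inhibitor of the complex in S and G2 phase, had ratios of -0.02 and -0.59.

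At the kinetochore 2 of 18 genes were at least 2-fold higher in both libraries, Cenpf and Kif2c. Cenpf, a large protein of the outer kinetochore, stood at 2334 CPM in Control and 2893 CPM in TBI members and at 728 and 770.5 CPM in the other cycling cells (log2 ratios 1.68 and 1.91), and had a UMI in each of the 56 Control and 48 TBI members that could be thinned to 5000 UMIs. Kif2c, a microtubule depolymerase, had ratios of 1.63 and 2.04. The list median was 0.30 and 0.42, and of the 18 genes 13 were higher and 4 lower in both libraries, among the latter Cenpm at -0.30 and -0.29 and Spc24 at -0.20 and -0.65. Of 25 genes of spindle and cytokinesis, 12 were at least 2-fold higher and all 25 were higher in both libraries, with a median of 0.91 and 1.09. Dlgap5, which stabilizes spindle microtubules, had ratios of 1.88 and 2.35, the cytokinesis motor Kif20a 1.65 and 1.45, and Ect2, the exchange factor that starts the cleavage furrow, 1.48 and 2.10. Of 8 condensin genes 0 were 2-fold higher in both libraries, from which nothing is read, since 2.13% of all 5861 genes were. Smc4, a core subunit of both condensins, stood at 974 and 1081 CPM against 720 and 701 CPM (0.44 and 0.63), while Ncapd3 of condensin II had ratios of -1.10 and -0.89.

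Outside the rule, the gene with the highest ratio was Tuba1c, an alpha-tubulin isotype, with 202 CPM in Control and 199 CPM in TBI members against 7.57 and 19.9 CPM in the other cycling cells (log2 ratios 4.74 and 3.32, intervals 3.79 to 5.89 and 2.60 to 4.13). Tubulin genes are near copies of each other, so reads of Tuba1c can be lost to other isotypes. Pif1, a DNA helicase, had 84 and 41 UMIs in members against 5 and 7 in the other cycling cells (4.15 and 3.16). Cdkn3, a phosphatase that acts on cyclin-dependent kinases, had ratios of 2.79 and 2.71. Genes of the centriole and centrosome were among the 10 highest as well, Hyls1 with 2.89 and 2.65 and Cep89 with 2.53 and 3.25, beside the actin-binding protein Smtn with 3.47 and 2.61. The others of the 10 were Cdc25c and Ube2c, given above, Zfp518b with 2.00 and 2.38, and Miip with 2.06 and 1.97. Except for Ube2c, these 10 genes passed the minimum of UMIs only with the UMIs of the members. Their ranks go with that choice, and nothing is read from them.

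**Figure D3:**
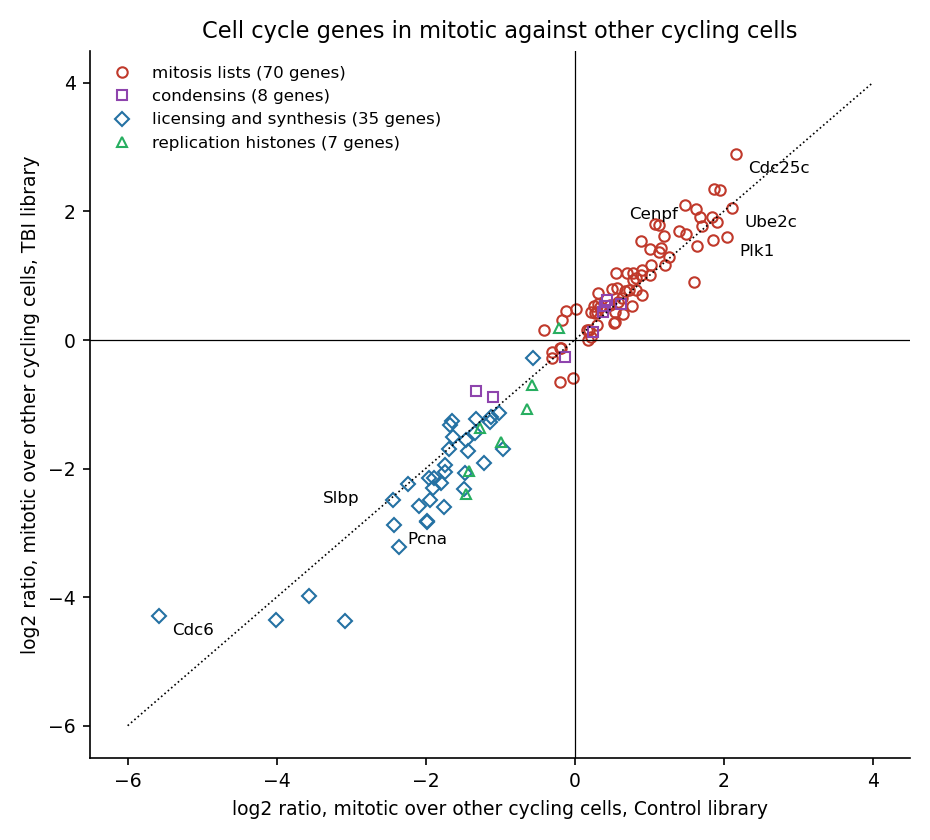
Log2 ratio of CPM in mitotic over other cycling cells in the TBI library (vertical axis) against the Control library (horizontal axis) for 70 genes of mitosis, 8 condensin genes, 35 licensing and synthesis genes and 7 replication histone genes; each mark is a gene and the dotted line marks equal ratios. Mitosis genes lie up to 2.16 in Control (Cdc25c), and Cdc6 is lowest, at -5.57 in Control.

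Replication licensing and DNA synthesis were lower in nearly all of their genes. Of 14 licensing genes 13, and of 21 synthesis genes 20, were at least 2-fold lower in both libraries, with medians of -1.72 and -2.11 and of -1.74 and -2.15. Cdc6, which loads the MCM helicase, had 2 UMIs in the Control and 2 UMIs in the TBI members, against 101 and 60 in the other cycling cells (log2 ratios -5.57 and -4.30, intervals -8.64 to -3.68 and -7.38 to -2.38). Cdt1, its partner in loading, had ratios of -4.00 and -4.36. The helicase subunit Mcm6 stood at 123 and 74.2 CPM against 523 and 447 CPM (-2.09 and -2.59), and Pcna, the sliding clamp of the polymerases, at 68.7 and 43.9 CPM against 367 and 324 CPM (-2.42 and -2.88). Geminin (Gmnn), the inhibitor of Cdt1, was among the genes with the smaller differences, at -1.14 and -1.27.

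Of the 10 genes with the lowest ratios 4 belonged to the licensing and synthesis lists, Cdc6, Cdt1, Chaf1b, a subunit of the chromatin assembly factor (-3.57 and -3.98), and the DNA repair enzyme Ung (-3.09 and -4.37). The E cyclins Ccne1 (-3.43 and -5.32) and Ccne2 (9 and 5 UMIs in members against 78 and 61), which open S phase, were of the list of D and E cyclins, their kinases and inhibitors. The others were in none of the lists, Dscc1, a subunit of a factor that loads Pcna (14 and 6 UMIs in members against 124 and 73), Tcf19 (-3.66 and -3.43), Slfn9 (-3.15 and -3.30) and Zfp367 (-2.74 and -3.51). In the members each of these 10 genes had at most 27 UMIs in Control and at most 7 in TBI. All of them passed the minimum of UMIs through the other cycling cells, so their ranks go with that choice and nothing is read from them.

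The histone genes of replication depended on how far a member lay from the limit of the rule. Their messages lack a poly(A) tail for the most part and are near copies of each other, so these levels are uncertain. Of 7 such genes outside the rule 3 were at least 2-fold lower in both libraries, Hist1h2ae, Hist1h2ap and Hist1h1e, with a list median of -0.99 and -1.37. In Control the 9 listed histone genes summed to 3551 CPM in the 18 members with under 2 times as many mitosis as S-phase UMIs, to 1152 CPM in the 10 members between 2 and 5 times, and to 448 CPM in the 30 members from 5 times on. In TBI the sums were 2172, 1891 and 505 CPM in 7, 8 and 34 members. Since 3 of the 8 S-phase genes of the rule are histones too, this order was given by the rule. Cenpf followed no such order and was highest between 2 and 5 times, with 1977, 2978 and 2374 CPM in the same 3 sets of Control members and 1777, 3235 and 3033 CPM in those of TBI.

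The promoters of these genes were searched for letters that are known from genes of the cell cycle. The CCAAT box is known as a site of the factor NF-Y in genes of G2 and mitosis, the cell cycle homology region (CHR) as a site of the complexes that keep such genes silent in G1 and drive them in G2, and E2F sites as elements of genes of the start of S phase. The RefSeq table of promoters (GRCm38.p6) held all 7 mitosis genes of the rule, 59 of the 70 mitosis genes, 29 of the 36 licensing and synthesis genes and 27025 genes in all. In the 250 bases before each start, both strands were searched for CCAAT, for the CHR letters TTTGAA, and for E2F as TTTCCCGC, TTTGGCGC, TTTCGCGC or TTTGCCGC, and matches may overlap. The windows of 4 genes that were high in members and of 1 that was low are shown because their letters differ, with matches in capitals; ATTGG is CCAAT on the other strand. They end at or just before the start and lie outside every exon of the GENCODE M21 annotation: Ccnb2 (chr9:70421555-70421704, minus strand), Hmmr (chr11:40733438-40733587, minus strand), Aspm (chr1:139454623-139454771, plus strand), Cenpf (chr1:189688087-189688236, minus strand) and Mcm6 (chr1:128359706-128359855, minus strand).
Ccnb2: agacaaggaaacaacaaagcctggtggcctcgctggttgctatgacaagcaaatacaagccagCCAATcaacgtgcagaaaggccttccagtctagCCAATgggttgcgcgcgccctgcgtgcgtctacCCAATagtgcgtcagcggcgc
Hmmr: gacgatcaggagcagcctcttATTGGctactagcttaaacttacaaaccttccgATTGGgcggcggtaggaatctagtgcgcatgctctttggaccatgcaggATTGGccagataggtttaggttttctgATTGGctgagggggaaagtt
Aspm: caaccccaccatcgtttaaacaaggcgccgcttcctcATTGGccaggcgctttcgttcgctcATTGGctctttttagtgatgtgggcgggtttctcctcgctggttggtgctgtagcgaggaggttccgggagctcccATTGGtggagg
Cenpf: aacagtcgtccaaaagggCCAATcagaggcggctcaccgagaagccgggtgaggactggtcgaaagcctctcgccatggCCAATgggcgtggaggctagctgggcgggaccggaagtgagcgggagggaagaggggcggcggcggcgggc
Mcm6: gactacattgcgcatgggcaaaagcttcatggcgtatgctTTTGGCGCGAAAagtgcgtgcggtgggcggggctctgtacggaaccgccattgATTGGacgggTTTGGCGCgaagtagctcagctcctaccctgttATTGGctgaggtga

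The windows show 3 CCAAT boxes in Ccnb2, 4 in Hmmr, 3 in Aspm and 2 in Cenpf, with 0 E2F matches. Mcm6 has 2 CCAAT boxes and 3 E2F matches, of which a pair on opposite strands overlap. At least 1 CCAAT was found in 7 of 7 mitosis genes of the rule and at least 2 in 6 of 7 (85.7%), against 34.5% and 10.5% of all promoters. Among the mitosis lists 67.8% of promoters held a CCAAT, and among the licensing and synthesis lists 65.5%, so both lists were near each other in this measure. The CHR letters were in 28.8% of the mitosis and 10.3% of the licensing and synthesis promoters, against 16.3% of all. The E2F letters were in 6.78% and 27.6%, against 1.92% of all, and in 0 of the 7 mitosis genes and 0 of the 4 S-phase genes of the rule that had a promoter in the table. The CHR letters were in 28.6% and 25% of these 7 and 4. A match describes these letters only and is no evidence of a bound site.

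Of 9 listed transcription factors of the cycle and their partner subunits 1 was higher and 7 were lower in both libraries, 0 of them at least 2-fold higher and 3 at least 2-fold lower, where 32% of all genes were higher, 39.8% lower and 2.88% at least 2-fold lower. Foxm1, a factor that drives genes of G2 and mitosis, stood at 105 CPM in Control and 125 CPM in TBI members and at 96.8 and 96.2 CPM in the other cycling cells (log2 ratios 0.12 and 0.38). E2f1, which drives entry into S phase, stood at 34.8 and 13.5 CPM against 142 and 112 CPM (-2.03 and -3.05), and Mybl2, which is also known to take part in driving genes of G2 and mitosis, had 11 and 2 UMIs in members, with ratios of -2.24 and -4.12. Of 12 genes for D and E cyclins, their kinases and inhibitors 4 were at least 2-fold lower, against the same 2.88% of all genes. Ccnd2, the D cyclin of these cells, stood at 1941 and 1658 CPM, against 1977 and 1768 CPM (-0.03 and -0.09). The CDK inhibitor Cdkn1b (p27) was higher in members, with 402 and 560.0 CPM against 236 and 231 CPM (0.77 and 1.28), and so was Cdkn2d (p19), with 257 and 302 CPM against 159 and 170.2 CPM (0.69 and 0.83). Cdkn1a (p21) was lower, with 11.6 and 11.8 CPM against 56.4 and 47.5 CPM (-2.28 and -2.01).

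Most members carried RNA of Eomes, and fewer that of the stem cell gene Hes5. After thinning each cell to 5000 UMIs, which left 56 of 58 Control and 48 of 49 TBI members, Eomes had a UMI in 78.6% of Control members (65.6 to 88.4%) and 77.1% of TBI members (62.7 to 88.0%), against 1.53% and 1.07% of oligodendrocytes, which should lack it. Without thinning these shares were 87.9% and 81.6% of members. The stem cell factor Sox2 had one in 92.9% and 85.4% of members, but oligodendrocytes reached 57.7% and 58.0%, and the Eomes or Neurog2 cells outside the cycle 61.1% and 69.4%. The glutamate transporter Slc1a3, a gene of radial glia, had one in 91.1% and 81.2% of members, in 30.5% and 30.9% of oligodendrocytes and in 80.7% and 80.3% of the cells outside the cycle. Eomes and Sox2 were found in the same cell in 40 of 56 Control and 33 of 48 TBI members, and Eomes and Slc1a3 in 40 and 32, at these high shares of both genes elsewhere. Hes5, a Notch target of stem cells, had a UMI in 30.4% and 16.7% of members, against 1.09% and 1.07% of oligodendrocytes, and was found together with Eomes in 13 of 56 and 6 of 48 members. Nes itself had a UMI in 16.1% and 18.8%, against 0.654% and 1.82% of oligodendrocytes, and stood at 41.0 and 37.1 CPM in the members.

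Against the other cycling cells 7 of 12 stem cell genes were higher and 2 lower in both libraries, and 7 and 3 of 13 neurogenic genes, where 32% of all 5861 genes were higher and 39.8% lower. In either list 0 genes were 2-fold higher or lower, from which nothing is read, since 2.13% and 2.88% of all genes were. The stem cell list had medians of 0.22 and 0.38 and the neurogenic list 0.36 and 0.11. Without barcodes of more than 4500 genes the stem cell median in Control was 1.21. Vim, an intermediate filament of radial glia, stood at 460.1 CPM in Control and 361 CPM in TBI members against 210 and 245 CPM (log2 ratios 1.13 and 0.56). Neurog2 had ratios of -0.98 and -0.88. Eomes itself had ratios of -0.07 and -0.37.

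Against the Eomes or Neurog2 cells outside the cycle stem cell genes were higher and most neurogenic genes lower in the members. Of 9151 genes considered 5.15% were at least 2-fold higher in the members of both libraries and 7.9% at least 2-fold lower, with medians of -0.19 and -0.22, and 26.3% were higher and 52.7% lower in both by any amount. These shares include the cycle genes by which the classes were set. Of 12 stem cell genes 5 were at least 2-fold higher and all 12 were higher in both libraries (medians 1.03 and 0.77). Fabp7, a fatty acid-binding protein of radial glia, stood at 399 and 361 CPM in members and at 167 and 139 CPM outside the cycle (log2 ratios 1.26 and 1.37). Insm1, a zinc finger factor that promotes the formation of intermediate progenitors, stood at 319 and 218 CPM in members and at 94.1 and 71.0 CPM outside the cycle (1.76 and 1.62), and was the only one of 14 neurogenic genes that was higher in both. After thinning it had a UMI in 76.8% and 66.7% of members, in 30.4% and 27.1% of the cells outside the cycle and in 1.74% and 1.82% of oligodendrocytes.

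The other 13 neurogenic genes were lower in both libraries, 4 of them at least 2-fold, with a list median of -0.67 and -0.63. Of all 9151 genes 52.7% were lower in both and 7.9% at least 2-fold lower. Eomes and Neurog2, which chose the compared cells, had ratios of -0.69 and -0.82 and of -0.07 and -0.43. Neurod1, a factor of late progenitors and neuroblasts, stood at 308 and 270 CPM in members against 758 and 697 CPM (-1.30 and -1.37). Dcx, a microtubule-binding protein of migrating neuroblasts, had ratios of -1.27 and -1.14, the neuronal tubulin Tubb3 -2.70 and -1.93, and Calb2, a calcium-binding protein of new granule neurons, -5.93 and -3.63. Sox11 and Sox4, factors of immature neurons, were within 2-fold in both libraries, at -0.55 and -0.37 and at -0.95 and -0.87. The lowest genes outside the lists were at or near 0 UMIs in members, Nhlh2, a factor of newborn neurons, with 0 and 1 UMIs against 231 and 357, Dpysl4 with 1 and 1 against 110 and 163, Jph4 with 1 and 0 against 75 and 114, Shc2 with 1 and 0 against 80 and 92, Plch2 with 1 and 0 against 55 and 67, and Spats2l with 1 and 0 against 64 and 66. These genes passed the minimum of UMIs through the compared cells alone. Their low counts in members go with that choice, and nothing is read from them.

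Outside the rule, the 6 genes with the highest ratios in that comparison included Ccna2, Ect2, Aurkb and Nek2 of the mitosis lists. Pif1 and Ankle1 were in none of the lists. The compared cells were chosen for 0 UMIs of Mki67, Top2a and Cdk1, and the members for high shares of them. These 6 genes passed the minimum of UMIs through the members. The ratios and counts here describe the choice, and nothing is read from them. Ccna2 had 438 and 264 UMIs in members and 2 and 3 in all cells outside the cycle, Ect2 279 and 211 against 1 and 3, Aurkb 237 and 127 against 2 and 1, and the centrosome kinase Nek2 133 and 76 against 1 and 2. Pif1 and the nuclease Ankle1 had 0 UMIs in the compared Control cells and 1 in the compared TBI cells, with 84 and 41 and with 75 and 48 UMIs in members. Each mitosis list was at least 2-fold higher in both libraries in most of its genes, 16 of 16 kinases and cyclins, 9 of 11 anaphase, 16 of 17 kinetochore and 24 of 25 spindle genes. Of the licensing genes it was 4 of 11 and of the synthesis genes 9 of 20. Pcna, at 0.19 and -0.01, was near the level of the cells outside the cycle, while Mcm6 had ratios of -0.11 and -0.75.

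The members differed among themselves in the balance of these 2 programs. In 14 of 58 Control and 6 of 49 TBI members the 14 stem cell genes held at least as many UMIs as the 14 neurogenic genes, and 8 and 4 of these lay within 2-fold of equality. Across members the shares of the 2 lists had a Pearson correlation of -0.66 in Control (58 cells) and -0.52 in TBI (49 cells), as a description of cells that share a library and vary in depth. In Control the stem cell list made up a median of 0.324% of a member's UMIs (0.107 to 0.784%) and the neurogenic list 1.02% (0.0578 to 1.62%), and in TBI 0.240% (0 to 0.693%) and 1.06% (0.0131 to 1.64%). The 14 Control members with a stem cell balance held 42 of 74 Hopx UMIs (56.8%), but 22 of 408 Hes5 UMIs (5.39%), and 1 of the other members alone held 94. Neurod1 had 0 UMIs in the members of that kind in either library. These 3 genes belong to the lists that set the balance, so their values are part of the split and no finding about it. Of the 70 mitosis genes 55 had fewer CPM in the members with a stem cell balance than in the other members in Control, and 59 in TBI, with sums of 18144 against 25256 CPM and of 17896 against 27469 CPM. Among genes with at least 100 UMIs in the members of the library it was 50 of 61 mitosis genes in Control, where 51.6% of 2088 genes were lower, and 42 of 46 in TBI, where 53.4% of 1094 were. The median depth of the 2 sides was 14816.5 and 20685.5 UMIs in Control and 11736.5 and 10933 UMIs in TBI. Cenpf stood at 1934 CPM in the 14 and 2437 CPM in the other 44 Control members, and at 1739 and 3055 CPM in the 6 and the other 43 TBI members. Ube2c stood at 745 and 1567 CPM in Control and at 835 and 1485 CPM in TBI, and Tpx2 at 702 and 843 CPM and at 575 and 1258 CPM. The members with a stem cell balance also lay nearer to the limit of the rule on cycle genes, with a median share of 0.157% against 0.395% in Control and 0.1496% against 0.274% in TBI. On the mitosis genes of the rule their median share was 0.360% against 0.493% in Control and 0.361% against 0.587% in TBI. The members were chosen by genes of the same program. The lower mitosis RNA is therefore a description, and nothing is read from it.

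**Figure D4:**
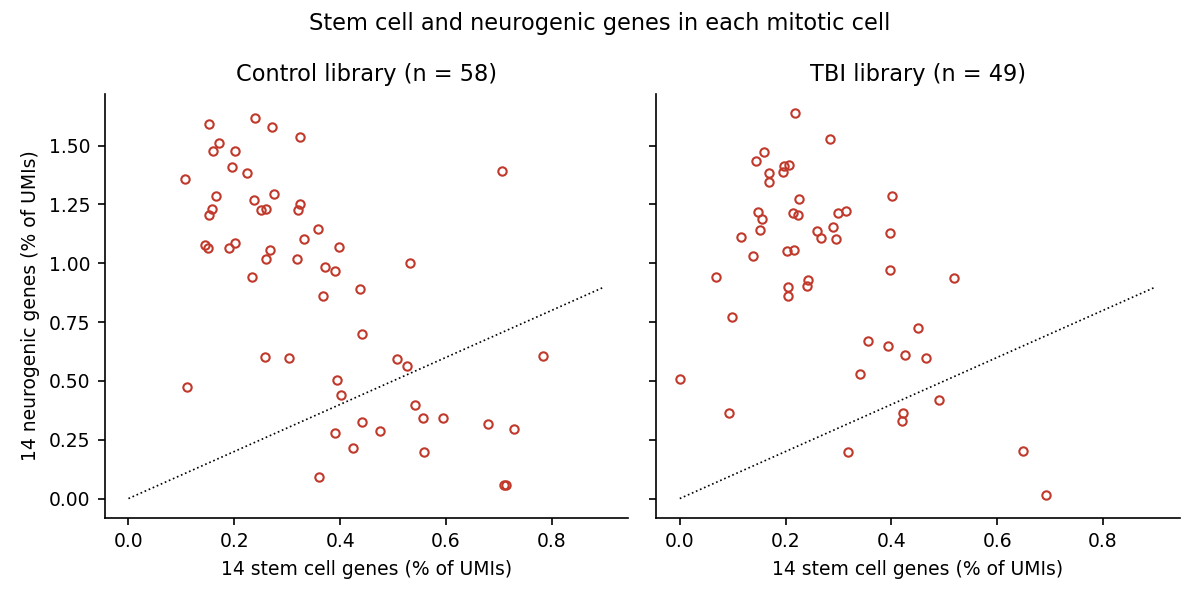
Share of UMIs of 14 neurogenic genes (vertical axis, %) against that of 14 stem cell genes (horizontal axis, %) in each mitotic cell of the Control (n = 58) and TBI (n = 49) libraries; each circle is a cell and the dotted line marks equal shares. Most cells lie above the line, and 14 Control and 6 TBI cells lie on or below it.

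Markers of oligodendrocyte precursors, microglia, endothelial cells, mural cells and blood were at or near 0 in the members, and those of oligodendrocytes, astrocytes and mature neurons were not. The 5 markers of oligodendrocyte precursors had 3 UMIs in Control and 2 in TBI members in all (Gpr17 at 0), the 6 of microglia 9 and 7 (C1qa at 0), the 5 of endothelial cells 3 and 5 (Cdh5 and Ly6a at 0), the 6 of mural cells 14 and 10 (Des at 0), and the hemoglobin genes 9 and 0. The 5 oligodendrocyte markers had 94 and 86 UMIs, or 83.8 and 145 CPM, and the part of this RNA in the differences between conditions was not tested. The 6 astrocyte markers summed to 497 and 408 CPM, of which the glutamate transporter Slc1a2, which radial glia express too, made up 409 and 359 CPM, with S100b at 0 UMIs and Gfap at 9 and 8. Of 7 markers of mature neurons Calb1 and Gad1 were at 0, and the list summed to 210 and 182 CPM with Rbfox3 in the lead. Of the other cycling cells 1 in TBI had 0.888% of its UMIs from mural markers.

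Between conditions few of the more abundant genes of the members differed by 2-fold. Of 3143 genes with at least 100 UMIs in the members of both libraries and 10 in each, 0.223% were at least 2-fold higher in TBI and 0.414% at least 2-fold lower, which is 7 and 13 genes, with a median log2 ratio of TBI over Control of 0.00. These counts depended on the minimum, and with 30 UMIs in place of 100 they were 73 higher and 44 lower, out of a larger number of genes considered. With 1 library per condition there is no test, and the effect of a library cannot be told apart from that of the injury. Basp1, a membrane protein of growing axons, was highest, with 191 CPM in Control and 487 CPM in TBI members (log2 ratio 1.35, interval 1.09 to 1.62), and it was found in 28 and 30 members. Its ratio was 1.28 in the other cycling cells, 0.52 in the Eomes or Neurog2 cells outside the cycle and 0.44 in oligodendrocytes, so it was higher in TBI in every class looked at. Gap43, another protein of growing axons, had 45.5 and 94.5 CPM in members (1.05), and -0.30 in the other cycling cells. Without the top cell of each library its ratio in members was 0.99, just under 2-fold. The deubiquitinase Usp33 had a ratio of 1.19, the cullin regulator Cand1 1.11, Trim44 1.07 and Ap1s2, a subunit of a vesicle adaptor, 1.04, and these 4 had ratios between -0.50 and 0.20 in the other cycling cells.

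Of the genes that were lower in TBI members Mfge8 had the lowest ratio. Mfge8, a secreted protein of astroglia and stem cells that helps the uptake of dying cells, stood at 139 CPM in Control and 21.9 CPM in TBI members (log2 ratio -2.67, interval -3.61 to -1.85), with ratios of -0.04 in the other cycling cells and 0.69 in the Eomes or Neurog2 cells outside the cycle. A single Control member held 40 of its 156 UMIs, and without the top cell of each library the ratio was -2.47. The metallothionein Mt3 (-1.45) and the RNA-binding protein Zfp36l1 (-1.34) were lower as well. The 6 astrocyte markers together had a ratio of -0.28 (-0.51 to -0.06) in members, with Gfap at 9 UMIs in Control and 8 in TBI. The members with a stem cell balance, 14 in Control and 6 in TBI, held 78.2% of the Control UMIs of Mfge8 and 69.3% of those of Mt3. Within these members Mfge8 stood at 535 CPM in Control and 68.5 CPM in TBI, and in the other members at 38.1 and 15.4 CPM. The TBI values rest on 5 and 8 UMIs, and the part of the balance in the ratio of Mfge8 was not tested. Others of the 6 lowest were Fosb (-1.58) and the histone gene Hist1h2ab of the rule (-1.34). The ratio of Hist1h2ab turned to 1.00 with at most 4500 genes per barcode and to 0.39 with at least 2 times as many mitosis as S-phase UMIs.

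By lists and over all members, RNA of mitosis made up slightly more and RNA of replication less of the TBI members. The members were chosen by the balance of mitosis and S-phase UMIs, so the ratios of these lists carry that choice. No effect of the injury is read from them. The summed CPM of the 70 mitosis genes had a log2 ratio of TBI over Control of 0.14 in members (0.11 to 0.17) and -0.02 in the other cycling cells (-0.06 to 0.01). It was 0.19 for kinases and cyclins, 0.22 for spindle and cytokinesis, 0.12 for the kinetochore and 0.02 for anaphase. Licensing had -0.36 in members and -0.13 in the other cycling cells, DNA synthesis -0.27 and -0.02, and histones -0.67 and -0.42. None of the 68 mitosis genes that passed the minimum was at least 2-fold higher or lower. Nothing is read from this, since only 0.223% and 0.414% of all 3143 genes were. Of the histones 3 of 6 were 2-fold lower, against the same 0.414%. More Control than TBI members lay near the limit of the rule, 18 of 58 against 7 of 49, so the lists were also compared by distance from it. In the members with at least 5 times as many mitosis as S-phase UMIs, 30 in Control and 34 in TBI, the mitosis genes summed to 22211 and 25563 CPM (log2 ratio 0.20) and the licensing and synthesis genes to 2063 and 1684 CPM (-0.29), beside 0.14 and -0.30 in all members. In the few members between 2 and 5 times, 10 and 8, the ratios were 0.16 and 0.41. In those under 2 times, 18 and 7, they were -0.05 and -0.10. Higher mitosis RNA with lower replication RNA in TBI was thus found only in the members with at least 5 times as many. In the members with at least 5 times as many the histones summed to 448 and 505 CPM, and the median log2 ratio of TBI over Control over the histone genes that passed the minimum there was 0.48, the opposite sign.

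**Figure D5:**
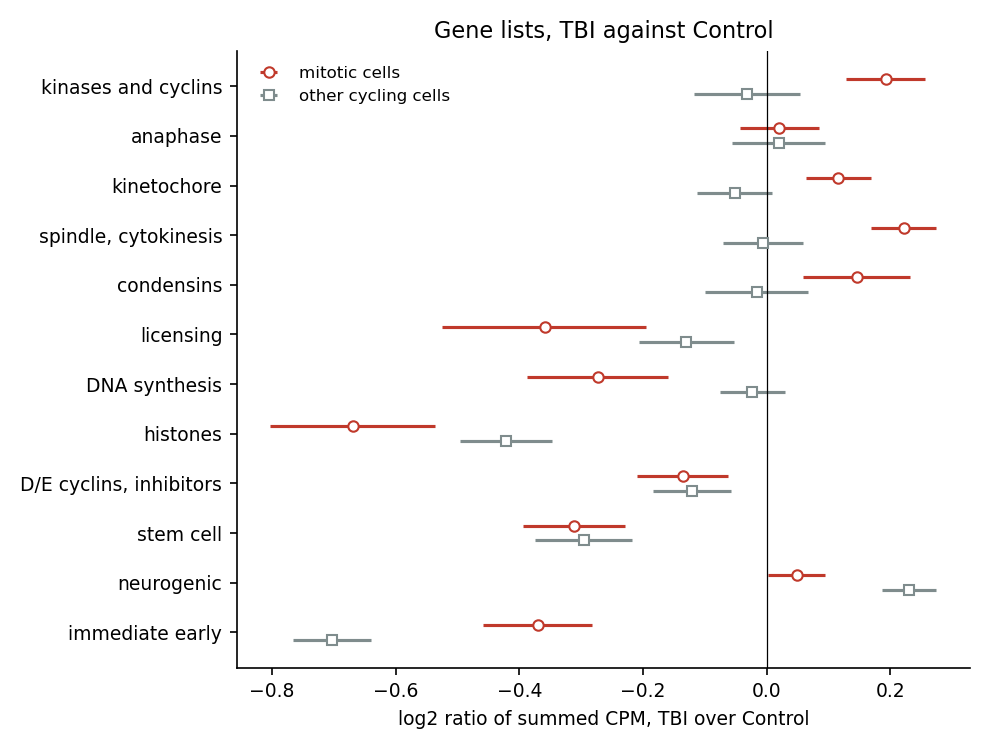
Log2 ratio of summed CPM in TBI over Control (horizontal axis) for 12 gene lists (vertical axis) in mitotic cells (circles) and other cycling cells (squares), with bars for exact 95% intervals of counting error. In mitotic cells the histones lie at -0.67 and the spindle genes at 0.22.

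The stem cell list had a ratio of -0.31 in members and -0.30 in the other cycling cells, and the neurogenic list 0.05 and 0.23. Of the 9 stem cell genes that passed the minimum 7 were lower in TBI, 0 of them 2-fold. Of all 3143 genes 49.8% were lower and 0.414% at least 2-fold lower. Hes5 stood at 364 and 204 CPM (-0.83), with 29 of 58 and 13 of 49 members carrying a Hes5 UMI before thinning. A single member held 94 Hes5 UMIs in Control and 46 in TBI, and without the top cell of each library the ratio was -1.12. Where barcodes with more than 4500 genes were left out, the ratio of Hes5 turned to 1.20. Eomes was nearly level at 490 and 439 CPM (-0.16), as was Neurod1 (-0.19), while Tubb3 had 140 and 231 CPM (0.72). Immediate early genes, which cell dissociation is known to switch on, summed to 3228 and 2497 CPM in members (-0.37) and had a ratio of -0.70 in the other cycling cells, with Fos at -0.84 and -1.45. Their part in the other differences between the libraries was not tested.

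Of the genes that the study names for its cycling clusters or for TBI, Ppp1r14b, an inhibitor of protein phosphatase 1, stood at 730.3 CPM in Control and 1049 CPM in TBI members (0.52). Its ratio was 0.46 in the other cycling cells and 0.45 in the Eomes or Neurog2 cells outside the cycle. Ezh2, the enzyme that methylates lysine of histone H3 to silence genes, stood at 712 and 773 CPM (0.12), and the translation factor Eif4g2 at 963 and 1054 CPM (0.13). Ranbp1, which binds the GTPase Ran, stood at 504 and 398 CPM (-0.34), and was lower in members than in the other cycling cells (-1.01 and -1.21). Hspa5, a chaperone of the endoplasmic reticulum, had a ratio of -0.30, Nme1 of 0.05 and Med29 of -0.21.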

How the data were processed

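The authors counted UMIs per gene and cell barcode with Cell Ranger 3.0.2, as the submitters' processing notes name it, on GRCm38/mm10. The deposited tables hold these counts as whole numbers without normalization, for every barcode called a cell by that program, without the cells' later filtering by RNA content. They were tied to conditions by barcodes that the study lists, 35 of 35 Control and 38 of 38 TBI barcodes in their own table and 0 in the other. The members and the gene lists were chosen with earlier results of these data known. From the counts, CPM was summed per class and library without Malat1, with exact 95% Poisson, Clopper-Pearson and conditional binomial intervals. UMIs collapse PCR copies, and the intervals cover counting error only. Oligodendrocytes, used as background, had 4 myelin genes at 1% of UMIs or more in sum. A gene was considered with at least 100 UMIs in the cells compared, and between conditions with 10 in each library as well. Shares of cells were taken after thinning to 5000 UMIs. Doublets were called with Scrublet at an expected 0.8% per 1000 cells. The genes named are those of the rule, the 10 highest and 10 lowest against the other cycling cells and the 6 highest and 6 lowest in the other comparisons, ranked by the library nearer 0, up to 4 members of each list, and 8 genes that the study names, less some genes that are not reported here. Gene positions are from GENCODE M21 and promoters from RefSeq. Computations used python 3.11.15, numpy 2.4.6, scipy 1.17.1 and scanpy 1.11.5, and plots matplotlib 3.10.9. Ratios and their intervals were tried on simulated counts with counting error only, without spread between cells or animals. The alternatives were other limits on genes, mitochondrial UMIs, cycle genes and the balance of mitosis and S-phase UMIs, removal of doublets, thinning, other minimums and other scalings.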

Additional observations from a re-analysis of the deposited data

How the results depend on the processing

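Each condition is 1 library, so no replicate could be left out. No paired analysis was possible because the animals that share numbers in the labels were pooled and the cells cannot be assigned to them. Of 1008 alternative values 889 stayed near the main value, 112 moved and 7 turned in direction. The cause was not tested beyond what each setting removes. The number of genes considered changes with the cells kept and with the minimum of UMIs. Counts of genes below are therefore given without shares, and nothing is read from their change. With at most 4500 genes per barcode, members were 0.578% of Control cells with a median of 12464 UMIs, 69.2% of members came from TBI, the counts of genes 2-fold higher and lower were 58 and 61 against the other cycling cells, 297 were higher against Eomes or Neurog2 cells outside the cycle and 3 were lower in TBI, the stem cell medians in Control were 1.21 and 1.34, the histone medians -3.62 and -2.49 and, for TBI over Control, -0.18, Hes5 had a UMI in 7.14% of Control members, and Hes5 (1.20), Hist1h2ae (1.67) and Hist1h2ab (1.00) turned. With at most 10% mitochondrial UMIs the Control share was 2.62%. With cycle genes at 0.2% or more the shares were 1.25% and 0.576%, the median UMIs 22129 and 14599, the counts 77 and 92, the licensing and synthesis median in TBI -1.72, the genes higher in TBI 4 and the histone median -1.06. With 2 times as many mitosis as S-phase UMIs, members were 1.31% of Control cells and 37.0% of its cycling cells, the licensing and synthesis median in Control was -2.14, the histone medians -2.54 and -1.73, 3 genes were higher and 8 lower in TBI, the immediate early median was -0.037, and the histone median (0.49), Hist1h2ae (0.55) and Hist1h2ab (0.39) turned. With cells thinned to 5000 UMIs first, the shares were 3.43% and 2.35% and the counts 53 and 74, 273 higher outside the cycle, and 2 and 5 between conditions. Centring left 480 genes lower against the cells outside the cycle. With a minimum of 30 UMIs the counts were 208 and 318, 1185 lower outside the cycle, and 73 and 44 between conditions, and with no minimum 680 and 776 with a histone median of -0.43. Without thinning Hes5 was found in 50% of Control members; at 2000 UMIs Eomes was found in 57.9% and 44.9%, Hes5 in 17.5% of Control, and Neurod1 in 28.6% of TBI members. The limit of 5 times as many mitosis UMIs, added after the data were seen, left 7 genes lower in TBI and turned the histone median to 0.48. The removal of the mural cell and of top cells, added likewise, moved none of the values tried. Without top cells Gap43 lay just under 2-fold, at 0.99. The removal of doublets, a minimum of 500 genes and sums without ribosomal, mitochondrial and hemoglobin genes moved none either. The mean CPM of single cells moved 3 genes.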
